A study of Mus musculus with 18 samples.

Results

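Epcam, Cdh1 and the claudin genes are the adhesion genes of epithelial cells, and they were followed here in mouse embryonic fibroblasts (MEFs), mouse embryonic stem cells (mESCs) and 3 kinds of induced pluripotent stem cells (iPSCs). The members were the probe sets that the authors' list of higher probe sets assigned to Epcam, Cdh1 or a gene whose symbol starts with Cldn. A probe set is a group of short probes on the array that together give 1 value, and some genes have several. The rule found 3 probe sets of 3 genes, Epcam (1416579_a_at), Cdh1 (1448261_at) and Cldn4 (1418283_at), among 45037 analysed. The list itself held 477 probe sets that were at least 10-fold above the MEF mean on each of the 15 other arrays, so the height of the members over MEFs was fixed by the choice and is described below without a test. Cldn4 was the sole claudin in the list, the matching list of lower probe sets held 0 of these genes, and other claudins were not analysed here because symbols were available for listed probe sets only.

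RNA was measured on 18 Affymetrix arrays, 3 of MEFs, 3 of mESC clones and 4 of clones from each iPSC group. The MEFs were isolated from mouse embryos that carried the rtTA*M2 transactivator at the ROSA locus and a reporter allele of Pou5f1, the gene of Oct4, and the labels give this strain for all groups, mESCs included. The OSKM iPSCs had received doxycycline-inducible Oct4, Sox2, Klf4 and c-Myc in PiggyBac transposons. The OE + EpEX iPSCs had received inducible Oct4 and EpCAM, the KE + EpEX iPSCs inducible Klf4 and EpCAM, and both were also treated with EpEX, the soluble extracellular domain of EpCAM. Doxycycline was given at 1.5 µg/mL for 21 days on feeder cells. Each iPSC array was a clone, whereas the 3 MEF arrays are labelled biological replicates although the series design names 1 primary culture, so their spread may be technical. Whether doxycycline or EpEX was still present at harvest, and whether the Epcam probe set also reads the EpCAM transgene, is not given in the sources used here, so endogenous and introduced Epcam RNA cannot be told apart.

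EpCAM is a transmembrane glycoprotein of epithelia and of pluripotent cells, and its proteolysis releases EpEX outside and an intracellular fragment that can enter the nucleus. Cdh1 encodes E-cadherin, the calcium-dependent adhesion protein of adherens junctions that holds mESCs together in compact colonies, and Cldn4 encodes a claudin, a membrane protein of the tight junction strands that seal the space between epithelial cells. Fibroblasts lack E-cadherin and tight junctions, and their conversion to iPSCs passes through a mesenchymal-to-epithelial transition in which such genes come on while their repressors of the Snail and Zeb families go down.

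The Snail and Zeb proteins bind E-box sequences, so the promoters of the members are shown with these letters marked. RefSeq promoter sequences (GRCm38.p6, 250 bases before to 50 after the start of the gene) were at hand for Epcam and Cldn4, on chr17:87635729-87636028 (plus strand) and chr5:134946885-134947184 (minus strand). They are written 5′ to 3′ along each gene, with the E-box CAGGTG, on either strand, in capitals.

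Epcam: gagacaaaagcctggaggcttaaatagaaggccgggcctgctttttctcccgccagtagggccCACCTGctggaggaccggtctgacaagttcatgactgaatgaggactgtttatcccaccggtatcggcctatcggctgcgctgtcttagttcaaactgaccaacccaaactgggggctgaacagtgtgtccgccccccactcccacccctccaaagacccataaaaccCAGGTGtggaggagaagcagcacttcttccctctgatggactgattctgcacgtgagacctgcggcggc

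Cldn4: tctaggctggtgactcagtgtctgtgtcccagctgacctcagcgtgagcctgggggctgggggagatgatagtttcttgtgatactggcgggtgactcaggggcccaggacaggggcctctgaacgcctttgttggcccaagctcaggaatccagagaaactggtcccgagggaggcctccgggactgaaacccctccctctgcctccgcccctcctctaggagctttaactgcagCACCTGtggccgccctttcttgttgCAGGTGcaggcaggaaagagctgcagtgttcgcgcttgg

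The Epcam promoter held 2 E-boxes, which began at -187 and -19 relative to the first base of the gene, counted as 0. The Cldn4 promoter held 2 as well, at -14 and 11. Among 32851 mouse promoters of this length, 20.2% held at least 1. A Klf-type motif, GGGNGTGG, matched the Epcam promoter once, at -51, and was present in 17.6% of promoters. The Hif core ACGTG matched Epcam on both strands at 30 and 31, 2 overlapping matches of 1 palindrome, and was present in 19.6% of promoters. Neither promoter held the Stat motif TTCNNNGAA, found in 8.3% of promoters, or the Grainyhead-like motif AACCGGTT, found in 0.146%. These are matches of letters in a short window and say nothing about binding.

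All 3 members were near the bottom of their range in MEFs and far above it in every pluripotent array. The deposited log2 scale puts the median of every probe set over all arrays at 0, so its values compare arrays within a gene, while levels of different genes cannot be compared and detection is unknown. Epcam lay at -7.03, -7.62 and -7.42 in the MEF arrays. Cdh1 lay at -8.48, -8.73 and -9.0 there, and Cldn4 at -4.80, -6.16 and -5.80. MEF array 1 was the highest of the MEFs for each gene, and over all probe sets it differed from the other MEF arrays by a root mean square of 0.864 and 0.883, against 0.236 between those.

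Epcam was 98.6-fold above the MEF mean in its lowest pluripotent array, mESC clone 2, and 237-fold in its highest, OE + EpEX clone 3. Cdh1 covered 318-fold, in KE + EpEX clone 4, to 619-fold, in mESC clone 3. Cldn4 had the smallest rise, from 12.7-fold in mESC clone 2 to 83.9-fold in OE + EpEX clone 1, and that mESC clone was just inside the 10-fold limit of the list. With quantile normalization the median log2 differences from MEFs, 7.45 for Epcam, 8.84 for Cdh1 and 5.68 for Cldn4, became 2.72, 3.48 and 1.98. That step forces the wide MEF columns to the shape of the rest, so the drop cannot tell how far these folds depend on the deposited scale.

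**Figure D1:**
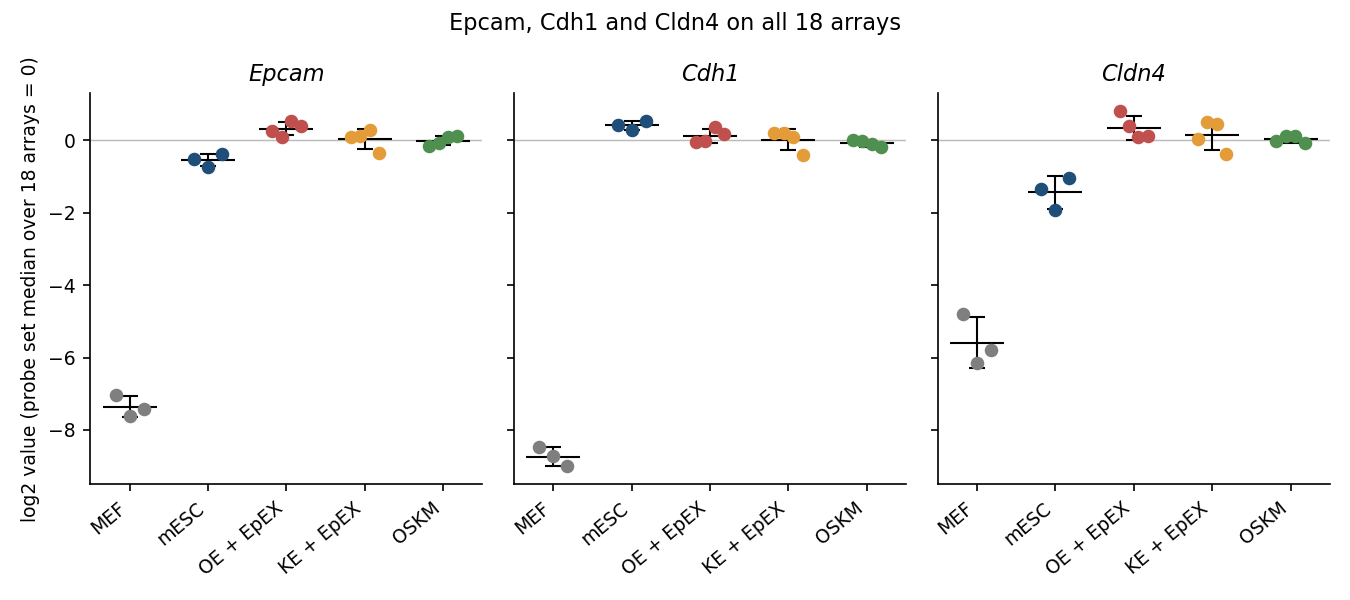
Log2 values of Epcam, Cdh1 and Cldn4 on the 18 arrays, with 1 point per array and the mean ± SD of each group as a bar and whiskers. The MEF points lie at -4.80 or below, whereas the pluripotent arrays lie at -1.92 or above.

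The choice of the genes did not fix whether the pluripotent groups differed among themselves, or whether cells made with EpCAM and EpEX carried more Epcam RNA. These comparisons used the 15 arrays without MEFs. Probe sets were tested with limma, and a probe set was called at a Benjamini-Hochberg adjusted p under 0.05 over all 45037. Epcam and Cldn4 were higher in every iPSC group than in mESCs, and Cdh1 was lower in OSKM iPSCs than in mESCs. No member was called between iPSC groups. The paper describes the mESC arrays as clones, and its text on pluripotency genes names a mouse ES cell line in the singular. The limma p thus reflects spread between clones. Whether the differences from mESCs would hold with other ES lines was not tested.

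Epcam, the gene of the treatment protein, lay at -0.53, -0.73 and -0.38 in the mESC clones. The OE + EpEX clones were at 0.26, 0.09, 0.53 and 0.39, the KE + EpEX clones at 0.10, 0.11, 0.28 and -0.36, and the OSKM clones at -0.15, -0.09, 0.09 and 0.11. Every iPSC clone was above every mESC clone, but KE + EpEX clone 4 was only just above mESC clone 3. Such a lack of overlap was common, as against mESCs it held for 24.2% (OE + EpEX), 21.6% (KE + EpEX) and 31.3% (OSKM) of all the probe sets. The group means were 0.32 ± 0.19 (SD, n = 4) for OE + EpEX, 0.03 ± 0.27 (SD, n = 4) for KE + EpEX, -0.01 ± 0.13 (SD, n = 4) for OSKM and -0.55 ± 0.18 (SD, n = 3) for mESCs.

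Against mESCs, Epcam was 1.82-fold higher in OE + EpEX (log2 difference 0.86, SE 0.14, limma adjusted p = 0.000819). It was 1.49-fold higher in KE + EpEX (0.58, SE 0.14, limma adjusted p = 0.0113) and 1.45-fold higher in OSKM (0.54, SE 0.14, limma adjusted p = 0.0171). The OSKM clones had received neither EpCAM nor EpEX and also exceeded mESCs, and the part of either in these differences was not tested. Without mESC clone 2 the limma adjusted p rose to 0.058 for KE + EpEX, and for OSKM it reached 0.0516, 0.0787 and 0.0514 without mESC clone 1, mESC clone 2 or OSKM clone 4.

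Between the iPSC groups the Epcam differences were small. OE + EpEX had a mean 0.33 above OSKM on the log2 scale, with a 95% interval of 0.04 to 0.61 and a limma adjusted p of 0.231. KE + EpEX had a mean 0.04 above OSKM, with an interval of -0.24 to 0.32. Both EpEX groups together had a mean 0.18 above OSKM, a 1.14-fold difference with an interval of 0.958-fold to 1.35-fold and a limma adjusted p of 0.481. In that comparison 5 of 8 clones lay above all OSKM clones and 1 below all of them, and the two-sided exact permutation p was 0.255. OE + EpEX and KE + EpEX differed by 0.29, with an interval of 0.003 to 0.57 and a limma adjusted p of 0.601. In the order of Epcam levels, OE + EpEX, KE + EpEX and OSKM were thus neighbours that did not pass the test, and OSKM and mESCs were neighbours that did.

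Cldn4, the tight junction claudin, showed the largest differences of the 3 genes between iPSCs and mESCs. The mESC clones were at -1.35, -1.92 and -1.04. The OE + EpEX clones were at 0.80, 0.39, 0.09 and 0.11, the KE + EpEX clones at 0.03, 0.51, 0.44 and -0.38, and the OSKM clones at -0.03, 0.12, 0.13 and -0.08. No iPSC clone overlapped the mESCs, as for 21.6% to 31.3% of all probe sets, while the 3 iPSC groups overlapped each other. The means were 0.35 ± 0.33 (SD, n = 4) in OE + EpEX, 0.15 ± 0.41 (SD, n = 4) in KE + EpEX, 0.03 ± 0.11 (SD, n = 4) in OSKM and -1.44 ± 0.45 (SD, n = 3) in mESCs. Cldn4 was 3.44-fold above mESCs in OE + EpEX (log2 difference 1.78, SE 0.23, limma adjusted p = 9.28e-05), 3.0-fold in KE + EpEX (1.59, limma adjusted p = 0.000225) and 2.77-fold in OSKM (1.47, limma adjusted p = 0.000419). These calls held without each array in turn, with limma adjusted p of at most 0.00251. Both EpEX groups together had a mean 0.22 above OSKM, with an interval of -0.18 to 0.61 and a limma adjusted p of 0.634.

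Cdh1, the gene of E-cadherin, ran the other way. It lay at 0.42, 0.29 and 0.54 in the mESC clones, and at 0.01, -0.03, -0.12 and -0.19 in the OSKM clones, all of them below the mESCs. The OE + EpEX clones were at -0.06, -0.01, 0.36 and 0.18, and the KE + EpEX clones at 0.19, 0.19, 0.10 and -0.42. The KE + EpEX clones were also all below the mESCs, and OE + EpEX clone 3 overlapped them. Against mESCs, 21.6% of all probe sets did not overlap in KE + EpEX and 31.3% in OSKM. The means were 0.42 ± 0.12 (SD, n = 3) in mESCs, 0.12 ± 0.19 (SD, n = 4) in OE + EpEX, 0.02 ± 0.29 (SD, n = 4) in KE + EpEX and -0.08 ± 0.09 (SD, n = 4) in OSKM. OSKM was 0.707-fold of mESCs (log2 difference -0.50, SE 0.14, limma adjusted p = 0.0239). This call was lost without mESC clone 1 or 3 or OSKM clone 3 or 4, with limma adjusted p of 0.0742, 0.107, 0.0558 and 0.067. The difference was -0.30 for OE + EpEX (95% interval -0.60 to 0.01, limma adjusted p = 0.192) and -0.40 for KE + EpEX (-0.70 to -0.10, limma adjusted p = 0.0696). In the order of Cdh1 levels, no group passed the test against its neighbour among the pluripotent groups.

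**Figure D2:**
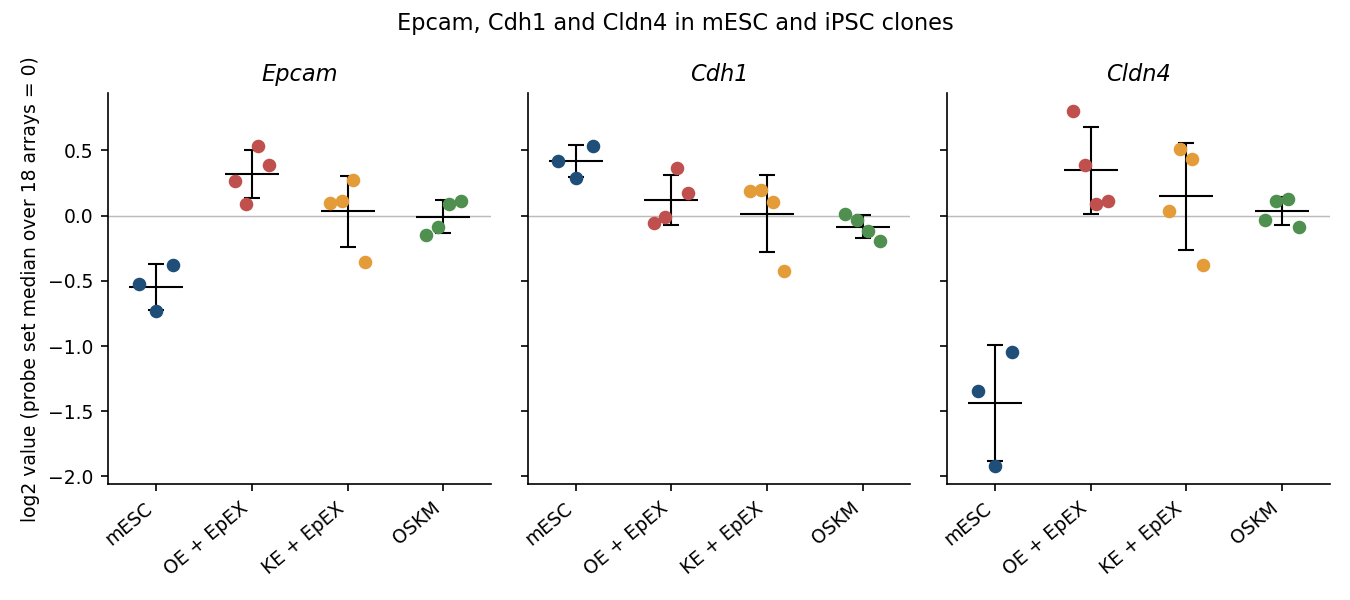
The same log2 values in mESC and iPSC clones alone, 1 point per array with mean ± SD. All 12 iPSC clones lie above the 3 mESC clones for Epcam and Cldn4, whereas for Cdh1 the mESC mean is the highest and OE + EpEX clone 3 overlaps the mESC clones.

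**Figure D3:**
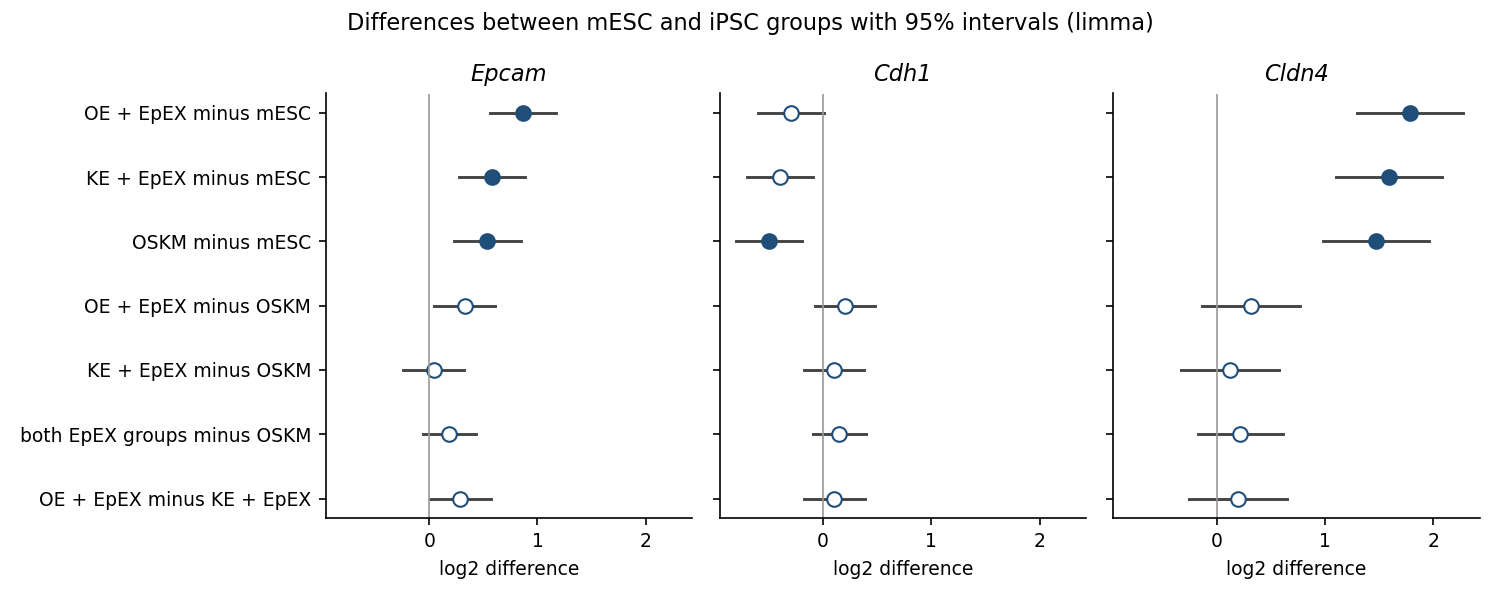
Log2 differences between groups for the 3 genes, as points with 95% intervals from limma, filled where the adjusted p was under 0.05. Filled points appear only in the comparisons with mESCs.

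The members called in the comparisons with mESCs were a larger share than among all probe sets, although 3 genes make a small count. In OE + EpEX against mESCs 14.2% of all probe sets were called, and 2 of 3 members. In KE + EpEX against mESCs the figures were 16.7% and 2 of 3 members, and in OSKM against mESCs 17.0% and all 3 members. Among the 452 probe sets of the up list with 1 symbol, 29.0%, 35.0% and 33.4% were called in these comparisons. The 3 comparisons share the mESC arrays and are not independent. Between iPSC groups few probe sets were called at all, 1.23% for OE + EpEX against OSKM, 0.00222% for KE + EpEX against OSKM, 0.0% for OE + EpEX against KE + EpEX and 1.07% for both EpEX groups against OSKM, and 0 of 3 members in each. These small shares depended on single arrays. Without KE + EpEX clone 3 the calls for KE + EpEX against OSKM went from 1 to 1579, and 0 were called without each other array. The 556 calls for OE + EpEX against OSKM ranged from 5, without OSKM clone 4, to 883, without OE + EpEX clone 3, and the 481 for both EpEX groups from 1, without OSKM clone 1 or 4, to 2512, without KE + EpEX clone 3. No member was called in any of these fits. OE + EpEX and KE + EpEX differed in 0 probe sets by limma, with 3723 at an unadjusted p under 0.05, and in 0 by the methods' t-test after adjustment. Without OE + EpEX clone 4, 3 or KE + EpEX clone 1 this count was 149, 34 or 2, and without each other array it was 0. With 4 arrays against 3, an exact permutation test cannot give a two-sided p below 0.0571, and that value is reached by every probe set whose groups do not overlap, Epcam and Cldn4 included.

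Other genes of epithelial junctions and of their control were taken from lists of tight junction, desmosome and keratin, and epithelial regulator genes. Of 58 listed gene symbols, some of them names of the same gene, 9 had a named probe set, with 14 probe sets in all. Each of the 9 had also been listed by the authors for being higher than in MEFs. Against mESCs, 5 of the 14 were higher and 1 lower in OE + EpEX, 6 higher and 1 lower in KE + EpEX, and 4 higher and 1 lower in OSKM. In each group 3 of the higher probe sets were those of Dsg2, and the calls came from 4, 4 and 3 of the 9 genes. The shares called over the up list were 29.0%, 35.0% and 33.4%, as above. The median log2 differences over the 14 were 0.27, 0.27 and 0.04, against -0.05, -0.02 and -0.02 over all probe sets. Where a gene has several probe sets, the one with the largest variance is given unless stated otherwise.

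Pard6b, which encodes a subunit of the Par polarity complex at the tight junction, was higher in all 3 iPSC groups. The mESC clones lay at -0.83, -0.84 and -0.97, and all 12 iPSC clones were higher, from -0.12 to 0.51. Such a lack of overlap, also seen for Dsg2 below, held for 21.6% to 31.3% of all probe sets in these comparisons. It was 2.22-fold higher in OE + EpEX, 2.01-fold in KE + EpEX and 2.0-fold in OSKM, with limma adjusted p of at most 0.000153. Dsg2, a desmosomal cadherin, was higher on 3 of 3 probe sets in each group. On 1439476_at it lay at -0.51, -0.52 and -0.44 in mESCs and from -0.07 to 0.22 in the iPSC clones, and its differences were 0.56, 0.56 and 0.53, with limma adjusted p of at most 0.000494.

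The desmosomal plaque gene Dsp did not follow Dsg2. It lay at 1.59, 0.74 and 1.37 in mESCs and at -0.57, -0.25, -0.51 and -0.68 in OSKM, where it was lower by a log2 difference of -1.73 (SE 0.31, limma adjusted p = 0.00117). In OE + EpEX the difference was -0.89 (limma adjusted p = 0.0697) and in KE + EpEX -0.83 (limma adjusted p = 0.0844). Pkp2, another plaque gene, was not called, with differences of -0.26, -0.58 and -0.21.

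Among regulators of epithelial fate, Klf5, a zinc finger factor of epithelia and mESCs, was lower than in mESCs in OE + EpEX (-0.53, limma adjusted p = 0.0165) and KE + EpEX (-0.62, limma adjusted p = 0.00524), and the OSKM difference of -0.37 had a limma adjusted p of 0.0808. The OE + EpEX call of Klf5 was lost without mESC clone 2 (limma adjusted p = 0.0848), which was at 0.88 against 0.34 and 0.31 in the other mESC clones. With all 18 arrays in the fit the limma adjusted p of Klf5 was 0.487 in OE + EpEX and 0.407 in KE + EpEX, and with the compared groups alone it was 0.0582 in KE + EpEX. Tfap2c, an AP-2 transcription factor, had higher means than mESCs on all 3 probe sets in OE + EpEX and KE + EpEX, but not all were called. 1418147_at was called in OE + EpEX (0.68, limma adjusted p = 0.00232) and KE + EpEX (0.70, limma adjusted p = 0.00164). 1436392_s_at was called in KE + EpEX alone (0.61, limma adjusted p = 0.0244), with 0.46 in OE + EpEX. 1448977_at was called in no group, with 0.22 in OE + EpEX and 0.23 in KE + EpEX. The call of 1436392_s_at was lost without mESC clone 1 or 2 or KE + EpEX clone 2 or 4, with limma adjusted p of up to 0.117. Grhl3, a Grainyhead-like factor, and the serine protease inhibitors Spint1 and Spint2 were not called in any of these comparisons.

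**Figure D4:**
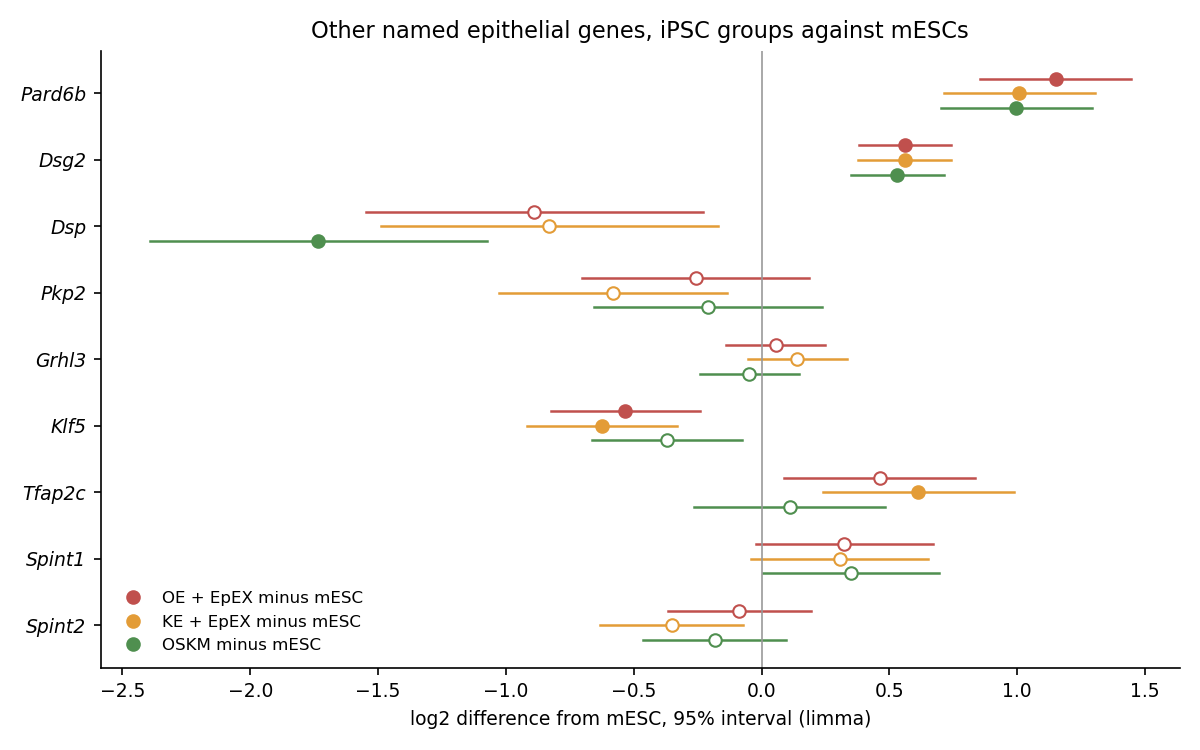
Log2 differences from mESCs of 9 other epithelial genes in the 3 iPSC groups, with 95% intervals from limma and filled points where the adjusted p was under 0.05. Pard6b and Dsg2 lie right of 0 in all 3 groups, and Dsp and Klf5 lie left of 0.

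Between the EpEX groups and OSKM, 0 of the 14 probe sets were called by limma, and 4 had an unadjusted p under 0.05, those of Dsp and the 3 of Tfap2c. Dsp lay at 0.53, 0.50, -0.02 and 0.36 in OE + EpEX and at -0.43, 0.02, 0.75 and 1.26 in KE + EpEX. Of these 8 clones, 7 lay above every OSKM clone, and the difference of both EpEX groups from OSKM was 0.87 (SE 0.25, limma adjusted p = 0.0924). The Tfap2c differences were 0.36, 0.43 and 0.25, with limma adjusted p of 0.1, 0.137 and 0.247, and the first was called without KE + EpEX clone 3 (limma adjusted p = 0.0267). Pard6b and Dsg2, which stood above mESCs in all iPSC groups, had differences of 0.08 and 0.03 here.

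Genes of the mesenchymal side were available for 5 of 10 listed genes, with 6 probe sets, Snai2 (Slug), Zeb2, Twist1, Twist2 and Cdh11, and were named from the authors' list of probe sets lower than in MEFs. The call among the pluripotent groups was Snai2 on 1447643_x_at in OE + EpEX against mESCs (log2 difference 1.08, SE 0.33, limma adjusted p = 0.0411). There it lay at 0.53, 0.18, -0.05 and 1.05 in OE + EpEX and at -0.52, -0.39 and -1.06 in mESCs, and its other probe set was not called. The call held in 1 of 7 fits that left out an array, without OE + EpEX clone 3, and the limma adjusted p reached 0.183 without mESC clone 3. Cdh11, a mesenchymal cadherin, ranged from -2.42 to 2.70 among the KE + EpEX clones and was not called in any comparison. Zeb2 differed from mESCs by -0.47 to -0.14 over the iPSC groups, Twist1 by -0.45 to 0.07 and Twist2 by 0.24 to 0.47, and none was called. The adherens junction list held 17 gene symbols, some of them names of the same gene, and Cdh11 was the 1 with a named probe set. For the list of EpCAM cleavage and signalling 0 of 20 genes had one.

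Because iPSCs were grown on feeder cells, fibroblast markers were set beside these results. In bulk RNA, fewer cells of a type and less RNA per cell cannot be told apart. The mean log2 value of the 6 named markers of 8 (Col1a1, Col3a1, Postn, Pdgfra, Pdgfrb and Lum) was 4.47 to 6.74 in MEFs, -0.63 to -0.41 in mESCs and -0.47 to -0.30 in OSKM. It spread more in OE + EpEX, from -0.29 to 1.09, and in KE + EpEX, from -1.04 to 1.56. The similar means of OSKM and mESCs cover markers that differed in opposite directions, Postn by 2.19 (limma adjusted p = 0.041) and Pdgfra by -1.74 (limma adjusted p = 0.00048). The Postn call was lost without each array in turn, and the Pdgfra call held. Pdgfra was also 1.13 higher in OE + EpEX than in OSKM (limma adjusted p = 0.0461), a call that was lost without each array in turn. KE + EpEX clone 4, the lowest iPSC clone for each of the 3 members, also had the lowest fibroblast mean, and the part of such cells in the differences was not tested. Without that clone the Epcam difference from mESCs was 0.71 for KE + EpEX. The 7 pluripotency markers averaged -8.33 to -8.10 in MEFs, 0.30 to 0.37 in mESCs and -0.09 to 0.22 in the iPSC clones. The step from mESCs was mostly that of Zfp42, whose group mean was 1.90 for mESCs and 0.12 (OE + EpEX), 0.22 (KE + EpEX) and -0.06 (OSKM) for iPSCs. The median differences over the list from mESCs were -0.08, 0.04 and -0.04. Of the 7 markers, 2 were called lower in OE + EpEX, 1 lower in KE + EpEX, and 1 lower and 1 higher in OSKM. The shares called over all probe sets were 14.2%, 16.7% and 17.0%, as above. Both marker sets were named from lists chosen against MEFs, so they describe these cells and do not check their labels independently. Markers of trophoblast and stratified epithelium had no named probe set. Of 6 markers of primitive endoderm 1 had a name, and it was Pdgfra, the probe set already counted with the fibroblast markers. It was also called lower than in mESCs in KE + EpEX (log2 difference -1.10) but not in OE + EpEX (-0.60). Which cells gave its signal was not tested.

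Among 901 other named probe sets, those most like Epcam over the 15 pluripotent arrays were AU018091 (Pearson r = 0.86), Gjb5 (0.86), a gap junction connexin, Col6a3 (0.83), Camsap3 (0.83), a protein of microtubule minus ends, and Aurka (0.80), a mitotic kinase. Over all 18 arrays, where the step from MEFs sets the correlation, they were AU018091 (0.997), Hat1 (0.997), Dsg2 (0.997), Gins1 (0.996) and Trim6 (0.995). Arrays of 1 group share their origin, so these values are descriptions.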

How the data were processed

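Each of the 18 RNA samples was run on 1 Affymetrix array. The labels name Trizol and biotin, where the methods of the study have RNeasy and Cy3. Values were made by the authors in GeneSpring GX and are deposited on a log2 scale centred on the median of each probe set. The submitters' processing notes list MAS5 and RMA without a role. Deposited lists of probe sets above or below MEFs gave the gene symbols, and their fold ratio columns, the authors' comparisons, were not used.

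Control probe sets (64 of 45101) were left out. The 15 arrays without MEFs were fitted with limma 3.58.1 (R 4.3.3; lmFit, eBayes), and 7 comparisons were adjusted by Benjamini-Hochberg over 45037 probe sets, with no fold limit. The step was tested on simulated data. Exact permutation tests used scipy 1.17.1, with Python 3.11.15, numpy 2.4.6, pandas 2.3.3 and matplotlib 3.10.9. The centred values allow no filter on dim probe sets, so the 22519 more variable ones served as that alternative. Tests of list genes against MEFs were not run, since all named genes came from lists made by that contrast. The other alternatives were fits of all 18 arrays or of the compared groups, quantile normalization, median centring, eBayes with trend and robust options, other thresholds, the methods' t-test, a replicate block and leaving out each array.

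Genes named were the members, per list and comparison at most the 3 called genes with the largest difference, and the 5 most like Epcam. Genes that were not called, Cdh11 among them, and single markers were added after their values were seen. One other gene was left out of the lists and is not reported here. Members and lists were chosen with earlier results of these data known. The number of arrays limits the precision, and signal over background is unknown.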

Additional observations from a re-analysis of the deposited data

Results flagged for a closer look

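In KE + EpEX, Cdh1 was -0.42 in clone 4, apart from 0.10 to 0.19 in the other clones. Of 51 groups of 4 clones examined over the members and listed epithelial genes, this 1 had a clone far from the rest of its group, and chance marks about 1 in 20 groups, or 2.55 here.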

How the results depend on the processing

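Epcam and Cldn4 kept their direction against mESCs in every alternative tried. With quantile normalization the number of members called fell from 2 to 1 for KE + EpEX and from 3 to 1 for OSKM against mESCs. The same number, 1, was left with an adjusted p under 0.01. In both settings the call lost in KE + EpEX was that of Epcam, and in OSKM those of Epcam and Cdh1. A 2-fold limit left 1 in each of the 3 comparisons with mESCs. For KE + EpEX, fitting the compared groups alone left 1 and the methods' t-test with adjustment left 0. The unadjusted t-test called 1 member, Epcam, in OE + EpEX against OSKM. Without each array in turn, 1 to 2 members were called in KE + EpEX, 2 in OE + EpEX and 1 to 3 in OSKM against mESCs. Of the 14 probe sets of listed epithelial genes, 6, 7 and 5 were called against mESCs in OE + EpEX, KE + EpEX and OSKM, and 1 in each with a 2-fold limit, and the adjusted t-test called 3 in OE + EpEX. Between both EpEX groups and OSKM 0 were called, 1, Dsp, with quantile normalization, 4 with the unadjusted t-test, and 0 to 1 without each array, the 1 being Tfap2c on 1418147_at without KE + EpEX clone 3. The cause of these changes was not tested.

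Replicate numbers did not pair the arrays, since same-numbered arrays had correlations of their deviations from -0.362 to 0.254 (median -0.0025, 2 of 21 pairs over 0.1). The replicate block gave 2, 2 and 2 members against mESCs, where Cdh1 in OSKM had a limma adjusted p of 0.0536, and 0 listed epithelial genes between both EpEX groups and OSKM. Calls for both EpEX groups against OSKM over all probe sets fell from 481 to 58.

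Signs turned for 3 differences between iPSC groups that had not passed the test. Without each array in turn, KE + EpEX minus OSKM ranged from -0.040 to 0.17 for Epcam, below 0 without KE + EpEX clone 3 or OSKM clone 1 (-0.0047), and from -0.0023 to 0.29 for Cldn4, below 0 without KE + EpEX clone 2. OE + EpEX minus KE + EpEX ranged from -0.044 to 0.16 for Cdh1, below 0 without KE + EpEX clone 4. Quantile normalization over 18 arrays, which forces the wide MEF columns to the shape of the rest, reduced the median difference from MEFs to 2.72 for Epcam, 3.48 for Cdh1 and 1.98 for Cldn4. The number of arrays and the unknown signal over background limit all comparisons.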
